A study of Mus musculus with 10 samples.

Results

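The P2X receptors are a family of channels in the cell membrane that extracellular ATP opens, and mouse has 7 genes for them, P2rx1 to P2rx7. All 7 were found by symbol among the 21849 genes of a count table from 10 CT26 tumours. CT26 is a colon carcinoma line from BALB/c mice, here grown under the skin of BALB/c hosts with an intact immune system. The family was chosen by the diet difference of P2rx3, which had passed the test in these same libraries, so the diet differences of its members are given as a description, and no p-value is printed for them.

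The 5 tumours of the arginine-deficient diet came from mice on a feed without arginine but equal in calories to the control feed. The 5 tumours of the normal diet came from mice on that control feed. In both groups BALB/c mice were 5 weeks of age when assigned, ate their diet for 1 week ahead of the CT26 injection, and gave tumours for total RNA sequencing at day 20. No drug, transgene or gene deletion was named for either group, and the design text does not say whether tumours were pooled.

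P2X subunits assemble in threes around a pore that passes sodium, potassium and calcium, and each subunit crosses the membrane at a pair of segments. ATP is scarce outside healthy cells and is released by stressed or dying cells and through pannexin and connexin channels. Ectonucleotidases then break it down to adenosine, which has receptors of its own. P2X3 is best known from pain-sensing neurons, where it acts alone or together with P2X2. P2X7 and P2X4 are known from macrophages and microglia, and P2X7 drives the NLRP3 inflammasome and the release of interleukin-1β.

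Reads can only be assigned to the right member where the members' sequences differ, so the coding sequences were compared. P2rx3 (ENSMUSG00000027071.14) lies at chr2:84998583-85037462 on the minus strand of GRCm38, and its main coding sequence has 1194 bases in 12 exons. It shared 51.4% (P2rx7) to 56.6% (P2rx4) of aligned coding bases with the other members. The stretch of 60 coding bases with the most bases identical in all 7 members, 29 of them, is shown. It was picked over all 7 at once, so a single pair can be more alike elsewhere. It lies ahead of the second membrane-spanning segment, and capitals mark the bases that all 7 share, each sequence being taken 5′ to 3′ from GENCODE M21 transcripts:
P2rx3: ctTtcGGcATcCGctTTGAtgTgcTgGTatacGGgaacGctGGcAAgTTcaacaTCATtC
P2rx1: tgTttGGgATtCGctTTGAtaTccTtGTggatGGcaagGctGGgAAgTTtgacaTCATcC
P2rx2: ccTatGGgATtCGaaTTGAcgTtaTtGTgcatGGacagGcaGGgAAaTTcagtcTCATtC
P2rx4: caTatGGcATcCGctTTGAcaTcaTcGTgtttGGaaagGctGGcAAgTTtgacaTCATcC
P2rx5: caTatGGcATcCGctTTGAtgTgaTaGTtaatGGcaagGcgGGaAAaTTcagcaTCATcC
P2rx6: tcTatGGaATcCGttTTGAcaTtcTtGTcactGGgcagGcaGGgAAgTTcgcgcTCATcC
P2rx7: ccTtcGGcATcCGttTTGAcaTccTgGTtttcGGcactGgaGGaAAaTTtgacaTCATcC
In this stretch, the other members differed from P2rx3 at 15 (P2rx5) to 23 (P2rx2 and P2rx6) of the 60 bases. The longest run of coding bases that P2rx3 shared exactly with another member was 26 bases, with P2rx2. Of the 1145 stretches of 50 bases in the coding sequence of P2rx3, 0 occurred in annotated transcripts of genes outside the family. In the main coding sequences of the other members 0 occurred as well, while their untranslated parts and other transcripts were not searched.

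Library totals ran from 12013178 to 31530123 counts, 12929 genes had enough counts to be tested, and the biological coefficient of variation was 26.5%. Some libraries stood apart. Arginine-deficient replicate 3 had 9.97% of its counts on mitochondrially encoded genes, against 1.67% to 4.44% in the other 9 libraries. Summed over 12 skeletal muscle markers, it held 6099 CPM (counts scaled to equal library totals), beside 1562 CPM in arginine-deficient replicate 4, 560 CPM in normal-diet replicate 4, and 5.07 to 73.4 CPM in the other libraries. Arginine-deficient replicate 1 and normal-diet replicate 5 had the most Gapdh, at 155 and 137 CPM, where the others had 51.1 to 115 CPM.

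P2rx3 was the member with the widest gap between the diets. Its CPM, scaled by TMM factors here and for every single gene below but not for sums over lists, was 86.3, 83.1, 38.7, 48.4 and 55.1 in arginine-deficient replicates 1 to 5, against 12.5, 12.7, 8.73, 18.5 and 11.2 in normal-diet replicates 1 to 5. Every tumour of the deficient diet stood above every tumour of the normal diet, and the lowest of them was the muscle-rich replicate 3. The means were 62.3 ± 21.3 CPM on the deficient diet against 12.7 ± 3.62 CPM in normal-diet tumours (SD, n = 5 per diet), a log2 fold change of 2.29 (SE 0.26), or 4.89-fold. These values rest on 7056 counts from the deficient diet and 1204 from the normal diet. The lowest library held 133 counts, whose counting error is 8.67%, well under the coefficients of variation among tumours of 34.1% on the deficient diet and 28.4% on the normal diet. In bulk tumours a change in RNA per cell and a change in the number of cells that carry the transcript cannot be told apart.

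Of the 5 members tested, P2rx3 was the 1 called at an adjusted p under 0.05 by edgeR's quasi-likelihood test, against 0.0541% of all genes tested. It was also the 1 member whose diets did not overlap, against 1.65% of all genes in either direction and 0.835% with the deficient diet higher. Both counts restate the choice of the family, and nothing is read from them. The call was lost without normal-diet replicate 1, without normal-diet replicate 3 and without the 2 libraries richest in Gapdh, where 0 genes of the table were called. Whether P2rx3 stayed called in each other setting is not reported here, and the replicate block called only 1 gene of the table. The log2 fold change stayed positive in all 18 alternative settings, from 2.10 without the 2 libraries richest in Gapdh to 2.74 without the 3 libraries richest in muscle transcripts.

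**Figure D1:**
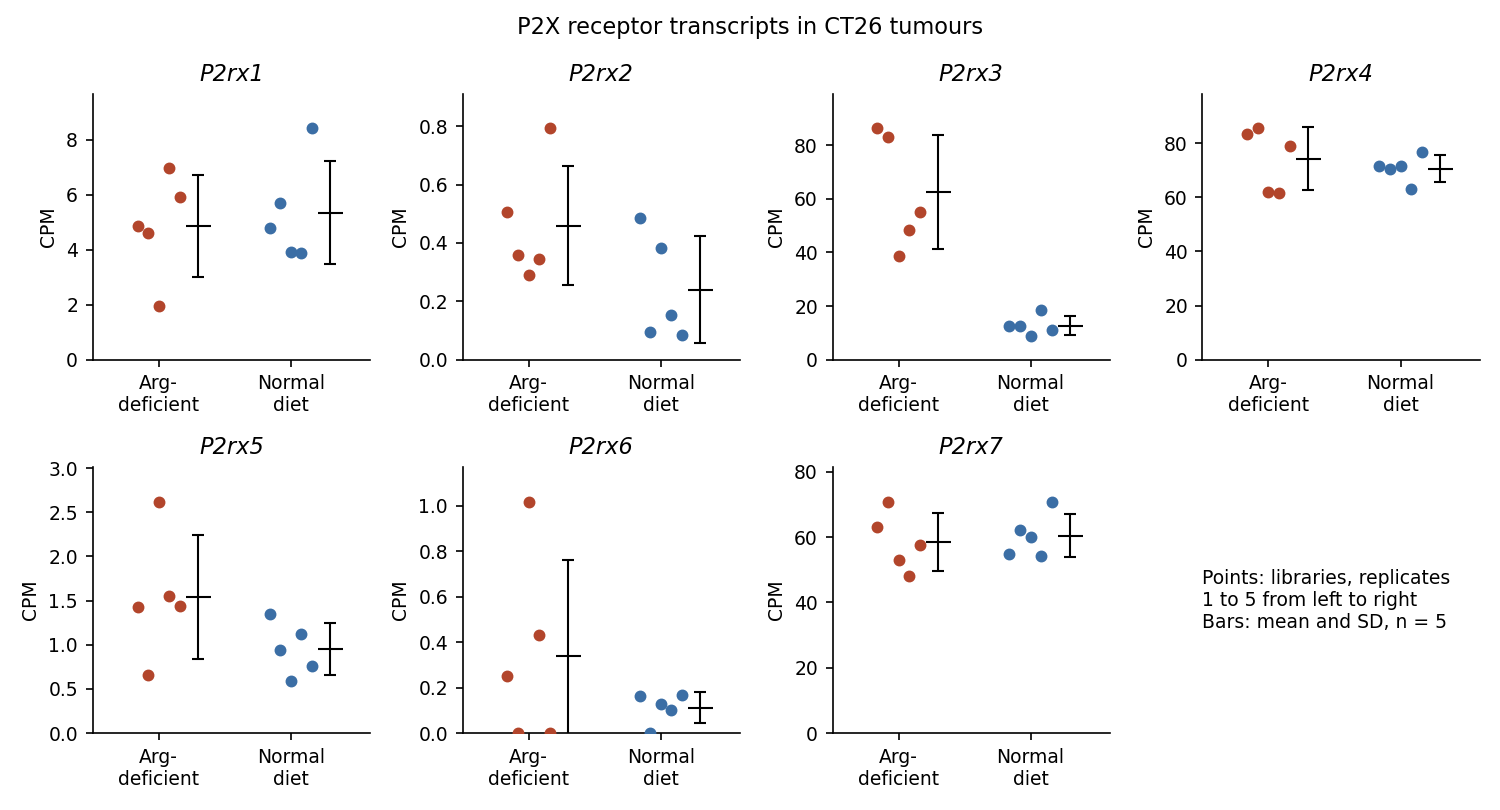
CPM with TMM factors of the 7 P2X genes in each tumour, with arginine-deficient libraries left and normal-diet libraries right in each panel; points are libraries, bars the mean and SD (n = 5), cut at 0, and each panel has its own scale from 0. P2rx3 stands at 38.7 to 86.3 CPM on the deficient diet and 8.73 to 18.5 CPM on the normal diet, while the points of the diets overlap in the other 6 panels.

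P2rx4 and P2rx7, the pair known from macrophages, lie next to each other on chromosome 5 and were well measured on both diets. P2rx4 had 83.5, 85.5, 62.1, 61.4 and 78.9 CPM in the arginine-deficient tumours, against 71.4, 70.3, 71.5, 63.1 and 76.6 CPM in the normal-diet tumours. The diets overlapped, and the spread was wider on the deficient diet, at 74.3 ± 11.7 CPM against 70.6 ± 4.86 CPM in normal-diet tumours (SD, n = 5 per diet). For P2rx4 the log2 fold change was 0.07 (SE 0.12). P2rx7 had 63.0, 70.8, 53.1, 48.2 and 57.6 CPM in the arginine-deficient tumours, against 54.9, 62.2, 60.2, 54.3 and 70.8 CPM in the normal-diet tumours. Its diets overlapped throughout, with a log2 fold change of -0.05 (SE 0.13).

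P2rx1, the P2X receptor of platelets and smooth muscle, was lower in level and more variable. It had 4.85, 4.61, 1.96, 6.95 and 5.91 CPM on the deficient diet, against 4.80, 5.71, 3.92, 3.88 and 8.41 CPM on the normal diet. The lowest tumour was again arginine-deficient replicate 3 and the highest was normal-diet replicate 5. Its log2 fold change of -0.13 (SE 0.33) was smaller than its error and changed sign when either of those libraries was left out, to 0.08 and 0.09.

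P2rx5, known from skeletal muscle and developing tissues, had 1.43, 0.659, 2.62, 1.55 and 1.44 CPM on the deficient diet, against 1.35, 0.936, 0.596, 1.12 and 0.757 CPM on the normal diet. Its highest value fell in arginine-deficient replicate 3, the library with 6099 CPM of muscle markers. For P2rx5 the log2 fold change was 0.70 (SE 0.36) over all libraries, 0.43 without that library and 0.38 without the 3 muscle-rich libraries.

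P2rx6 and P2rx2 had too few counts to be tested. P2rx6, a subunit known to form few channels by itself, had 8, 0, 28, 10 and 0 counts on the deficient diet, against 3, 0, 3, 2 and 2 counts on the normal diet. The 28 counts also fell in the muscle-rich arginine-deficient replicate 3, and 41.3% of the bases in its exons overlap the gene body of Slc7a4, where the counting rule is unknown. P2rx2, the known partner of P2X3 in sensory neurons, had 16, 6, 8, 8 and 11 counts on the deficient diet, against 9, 2, 9, 3 and 1 counts on the normal diet. That is 0.459 ± 0.203 CPM on the deficient diet against 0.240 ± 0.183 CPM in normal-diet tumours (SD, n = 5 per diet), and the diets overlapped.

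Of the 4 tested members other than P2rx3, 0 were called by edgeR, with 0 also at an unadjusted p under 0.05, where the share over all genes tested was 6.74%. DESeq2 called 0 of the other members, beside 0.949% of the genes it tested, and limma voom called 0 of them, beside 2.88%. The log2 fold change was positive for 2 of these 4. These counts come from the contrast that chose the family, and nothing is read from them.

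To compare the members with each other, CPM was divided by the length of each gene's exons in kilobases. Averaged over the arginine-deficient tumours, the level per kilobase of P2rx3 was 22.3 ± 7.62, that of P2rx4 10.6 ± 1.66 and that of P2rx7 9.80 ± 1.47 (SD, n = 5). In normal-diet tumours the level per kilobase of P2rx3 was 4.56 ± 1.30, that of P2rx4 10.05 ± 0.691 and that of P2rx7 10.1 ± 1.12 (SD, n = 5). P2rx3 thus stood above P2rx4 in 5 of 5 deficient-diet tumours and in 0 of 5 normal-diet tumours. It made up 48.1 ± 5.90% of the family's summed level per kilobase on the deficient diet and 16.8 ± 4.94% on the normal diet (SD, n = 5 each). Among 12912 tested protein-coding genes, its mean level per kilobase ranked at the 80.3rd percentile on the deficient diet and the 38.4th on the normal diet. The order, share and rank of P2rx3 by diet restate the diet difference that chose the family, and nothing further is read from them.

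Below these 3 genes the order was the same on both diets. The mean level per kilobase of P2rx1 was 1.85 on the deficient diet and 2.04 on the normal diet. P2rx5 followed at 0.643 on the deficient diet and 0.398 on the normal diet, P2rx2 at 0.178 and 0.0932 in the same order, and P2rx6 at 0.0853 and 0.0280.

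Neighbours in this order were compared over all 10 libraries by an exact two-sided sign-flip permutation test, adjusted over the 6 neighbouring pairs. P2rx7 was above P2rx1 in 10 of 10 libraries (exact permutation, adjusted p = 0.00585). P2rx1 was above P2rx5 in 9 of 10 (exact permutation, adjusted p = 0.00782), with arginine-deficient replicate 3 the exception. P2rx5 was above P2rx2 in 10 of 10 (exact permutation, adjusted p = 0.00585), and P2rx2 above P2rx6 in 8 of 10 (exact permutation, adjusted p = 0.044). That last pair rests on only 73 and 56 counts over all libraries. Their mean levels, 0.136 and 0.0567, lie near the 0.1 added before the log. Of the bases in P2rx6 exons 41.3% overlap Slc7a4, so its level may be off, and the order of this pair is uncertain. The level of P2rx4 was above that of P2rx7 in 6 of 10 libraries (exact permutation, adjusted p = 0.226), less than their spread. With the length of each gene's longest transcript in place of all its exons, that pair was ordered the same way in 10 of 10 libraries (exact permutation, adjusted p = 0.0039), so their order depends on the length used.

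**Figure D2:**
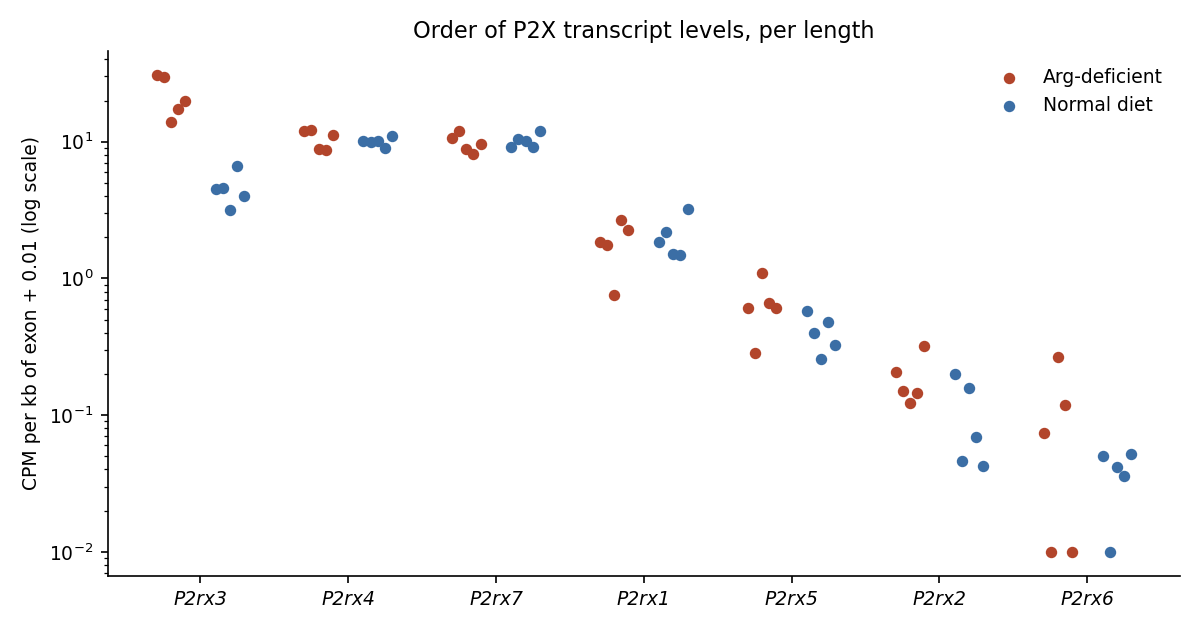
Level of each P2X gene as CPM per kilobase of exon (log scale, 0.01 added), 1 point per library, arginine-deficient left and normal diet right for each gene, with replicates 1 to 5 from left to right. P2rx3, whose diet difference chose the family, lies above P2rx4 and P2rx7 in the 5 arginine-deficient tumours and below both in the 5 normal-diet tumours. P2rx1, P2rx5, P2rx2 and P2rx6 follow in that order of mean level.

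The rest of the ATP pathway was read from 6 lists with 65 genes, of which 46 were tested. By edgeR 0 of the 46 were called in either direction, and 2 of them had an unadjusted p under 0.05, against 6.74% of all genes tested. DESeq2 called 0 and limma voom 1. The median log2 fold change of the 46 was 0.04, beside 0.00 over all genes tested, and 25 were positive.

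The list of G-protein-coupled receptors with P2Y gene names, most of them receptors of extracellular nucleotides, had 4 of 9 members tested and 0 called. P2ry2, a receptor of ATP and UTP, averaged 31.0 ± 8.29 CPM on the deficient diet against 26.1 ± 3.58 CPM in normal-diet tumours (SD, n = 5 per diet), with a log2 fold change of 0.25 (SE 0.19, edgeR adjusted p = 0.944). The log2 fold change of P2ry10 was 0.38 (SE 0.38), and that of P2ry10b -0.20 (SE 0.34), with edgeR adjusted p-values of 0.974 and 0.998. Despite their names, P2ry10 and P2ry10b are known as receptors of lysophosphatidylserine. The log2 fold change of P2ry10 turned to -0.05 without arginine-deficient replicate 3 and to -0.17 by limma voom. P2ry12, P2ry13 and P2ry14 were listed at 0 in every library, and 100% of their exonic bases lie inside the bodies of other genes, so this says nothing of their expression. Of the 4 adenosine receptors 2 were tested and 0 called: the log2 fold change of Adora2a was -0.60 (SE 0.47) and that of Adora2b 0.16 (SE 0.26), with edgeR adjusted p-values of 0.944 and 0.998. Both rested on single tumours: without normal-diet replicate 1 the log2 fold change of Adora2a was -0.0011, and without normal-diet replicate 2 that of Adora2b was -0.0017.

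The enzymes that break down ATP and remove adenosine had 10 of 14 members tested and 0 called, with a median log2 fold change of 0.04. Entpd1 (CD39), which turns ATP into AMP, averaged 110 CPM on the deficient diet and 99.4 CPM on the normal diet. Nt5e (CD73), which makes adenosine from AMP, averaged 13.5 ± 0.752 CPM on the deficient diet against 15.5 ± 3.87 CPM in normal-diet tumours (SD, n = 5 per diet), with a log2 fold change of -0.20 (SE 0.18, edgeR adjusted p = 0.961). The log2 fold change was 0.33 (SE 0.43) for Dpp4, also in this list, and -0.37 (SE 0.50) for the phosphatase gene Alpl, with edgeR adjusted p-values of 0.996 and 0.997. The list of ATP release channels and nucleoside transporters had 9 of 15 tested and 0 called. The release channel Panx1 averaged 8.49 CPM on the deficient diet and 8.10 CPM on the normal diet. Of the nucleoside transporters, the log2 fold change of Slc29a2 was 0.28 (SE 0.16), that of Slc29a3 0.22 (SE 0.21) and that of Slc29a1 0.13 (SE 0.13), with edgeR adjusted p-values of 0.843 to 0.974.

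Downstream of P2X7, the inflammasome list had 9 of 11 members tested and 0 called. Casp4, the inflammatory caspase-11, had the smallest p of the pathway genes. It had 48.2, 54.9, 57.0, 41.7 and 46.8 CPM on the deficient diet, against 61.6, 80.9, 65.2, 63.8 and 51.1 CPM on the normal diet. The diets overlapped through normal-diet replicate 5. Its log2 fold change was -0.38 (SE 0.14) with an edgeR adjusted p of 0.591, and limma voom was the only setting of 18 that called it (adjusted p = 0.0318, over a range of 0.0318 to 1). Il1b, the cytokine this pathway releases, averaged 22.4 ± 8.75 CPM on the deficient diet against 17.5 ± 5.14 CPM in normal-diet tumours (SD, n = 5 per diet), a log2 fold change of 0.35 (SE 0.28, edgeR adjusted p = 0.948). Il1rn, the antagonist of the interleukin-1 receptor, had a log2 fold change of 0.34 (SE 0.23, edgeR adjusted p = 0.909).

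Of the calcium-activated targets all 12 were tested and 0 called. The kinase subunit Camk2a had a log2 fold change of 0.62 (SE 0.28, edgeR adjusted p = 0.737). Its highest value, 43.2 CPM, was in the muscle-rich arginine-deficient replicate 3, and the log2 fold change was 0.23 without that library and 0.15 without the 3 muscle-rich libraries. The log2 fold change of Camk2b was -0.34 (SE 0.23), and that of the transcription factor gene Nfatc4, whose product calcineurin activates, was -0.38 (SE 0.32), with edgeR adjusted p-values of 0.909 and 0.958.

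**Figure D3:**
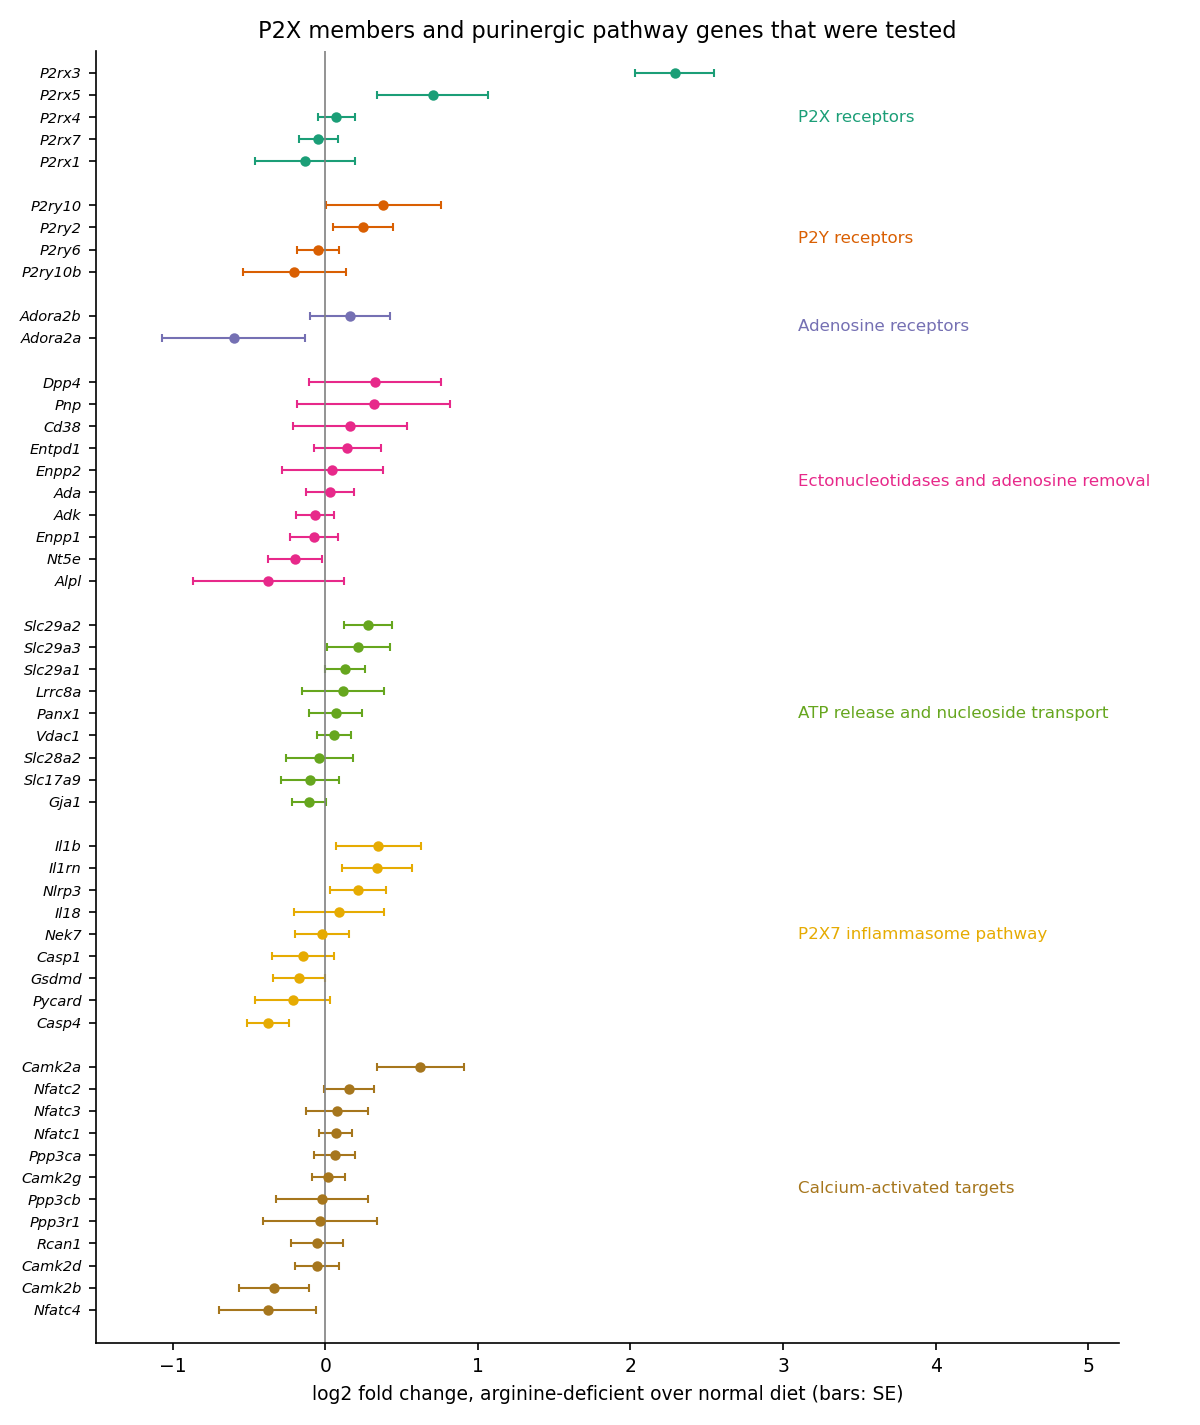
Log2 fold change of each tested gene, arginine-deficient over normal diet, for the P2X genes and the 6 pathway lists, with bars for the standard error. P2rx3 is at 2.29, the difference for which the family was chosen, so nothing is read from its distance to the other genes. The values of the 46 pathway genes run between -0.60 (Adora2a, -0.0011 without normal-diet replicate 1) and 0.62 (Camk2a, 0.23 without arginine-deficient replicate 3).

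Because P2rx3 is a gene of sensory neurons, 28 markers of these cells were examined beside it. Most were near 0: 4 of the 28 had no count in any library, 22 averaged under 0.5 CPM on both diets, and 6 reached that level on a diet. The 6 were Avil, the neurofilament gene Nefm, Gfra2, Ret, Asic3 and Calcb, of which Nefm averaged 28.6 CPM on the deficient diet and 35.0 CPM on the normal diet. Summed over the 28, the libraries ran from 34.4 to 114 CPM on the deficient diet and from 34.6 to 88.2 CPM on the normal diet. Scn10a, the sodium channel of pain neurons, had 16 counts over all 10 libraries, 13 on the deficient diet and 3 on the normal diet. The neuropeptide gene Calca had 18, as 12 and 6 in the same order, and the capsaicin receptor gene Trpv1 12, as 3 and 9. Of the markers without a count, Nefl and Tubb3 lie wholly inside other genes' bodies and cannot be judged, while Tlx3 does not. The whole list averaged 81.2 ± 30.8 CPM on the deficient diet against 53.8 ± 20.2 CPM in normal-diet tumours (SD, n = 5 per diet). Leaving out Avil and Nefm, a choice made with their values known, the remaining 26 markers summed to 10.8 ± 2.41 CPM on the deficient diet against 10.7 ± 1.08 CPM in normal-diet tumours. Most of that remainder was Gfra2, a co-receptor gene for a growth factor, at 6.76 CPM on the deficient diet and 6.21 CPM on the normal diet.

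Avil, which encodes the actin-binding protein advillin, was the exception in this list. It had 35.4, 76.0, 13.4, 40.0 and 48.5 CPM on the deficient diet, against 7.34, 2.99, 6.13, 6.90 and 15.2 CPM on the normal diet. Normal-diet replicate 5 overlapped with arginine-deficient replicate 3, and the other libraries of the 2 diets were apart. Its log2 fold change was 2.48 (SE 0.46) with an edgeR adjusted p of 0.0956, over the threshold, and 41.2% of the bases in its exons overlap other gene bodies. It was called in 4 of 18 alternative settings, over a range of adjusted p from 8.74e-06 to 0.379: by DESeq2, by limma voom, without replicate 3 of the deficient diet (0.0179) and without replicate 5 of the normal diet (0.0493).

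**Figure D4:**
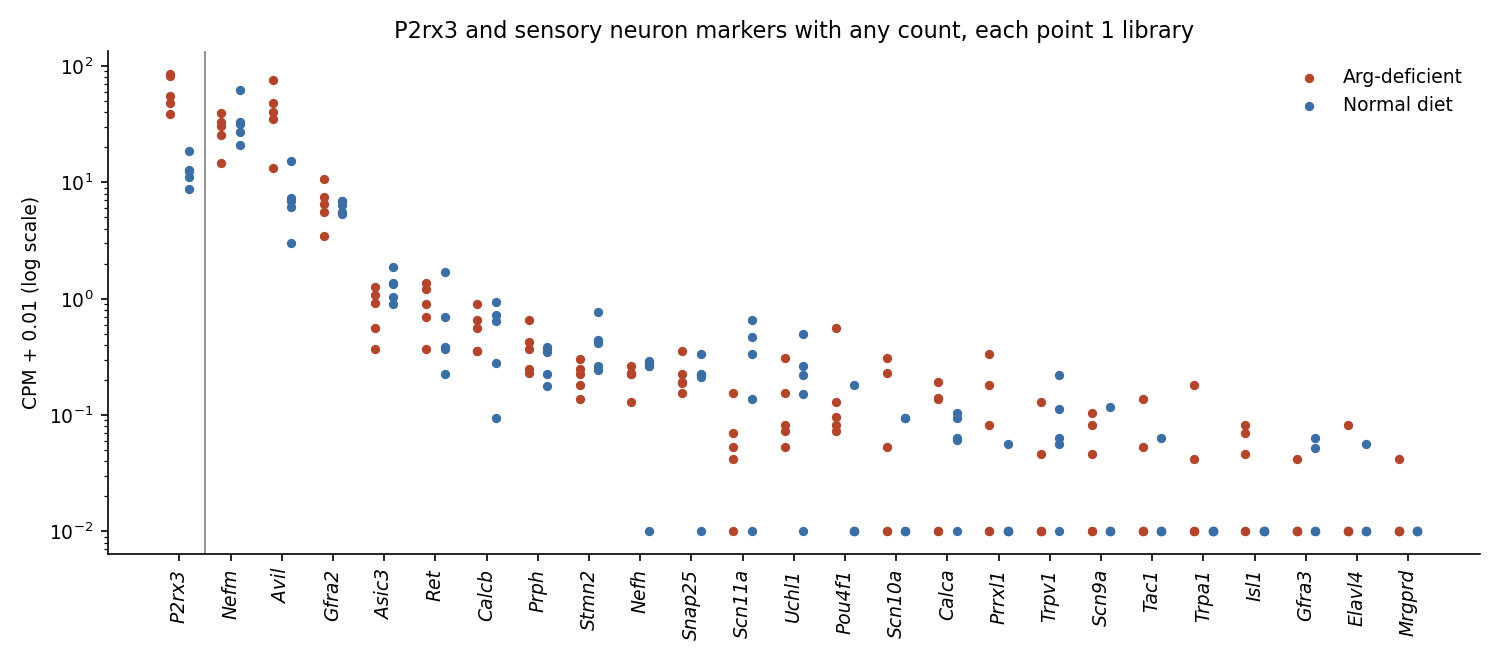
CPM (log scale, 0.01 added) of P2rx3 and of the sensory neuron markers with a count in any library, 1 point per library, with arginine-deficient and normal-diet tumours in separate colours. P2rx3 reaches 86.3 CPM and Avil 76.0 CPM on the deficient diet, while 22 of the 28 markers average under 0.5 CPM on both diets.

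Markers of other cells that can carry P2X receptors were also counted. Across all 12 marker lists 78 of 133 genes were tested and 0 called by edgeR, with 13 (16.7%) at an unadjusted p under 0.05, against 6.74% of all genes tested. Of these 13, 3 were skeletal muscle and 2 smooth muscle markers. DESeq2 called 1, Avil, and limma voom 3, Avil, the platelet gene Pf4 and the neutrophil collagenase gene Mmp8. The macrophage list summed to 1922 ± 75.1 CPM on the deficient diet against 1871 ± 240.4 CPM in normal-diet tumours (SD, n = 5 per diet), and the platelet list to 38.4 ± 4.59 and 32.7 ± 7.62 CPM in the same order. Schwann cell markers, from the glia of nerves, summed to 46.3 ± 5.81 CPM on the deficient diet against 41.5 ± 3.70 CPM in normal-diet tumours (SD, n = 5 per diet). Epithelial markers, which a carcinoma line can carry, had the smallest p of the 12: 190 ± 56.4 CPM on the deficient diet against 257 ± 35.1 CPM in normal-diet tumours (SD, n = 5 per diet, exact two-sided permutation p = 0.0397). Krt20, a keratin of intestinal epithelium, made up most of that sum, at 176 CPM on the deficient diet and 234 CPM on the normal diet. Cdh1 (E-cadherin) and Krt19 lay the other way, with log2 fold changes of 0.74 (SE 0.30) and 1.12 (SE 0.74) and edgeR adjusted p-values of 0.66 and 0.902. Adjusted over the 12 lists, the exact permutation p-values ran from 0.381 to 0.889. What part these cells had in the level of P2rx3 was not tested.

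The genes around P2rx3 on chromosome 2 were examined because reads of neighbours could spill into its count. The 5′ end of P2rx3 overlaps that of Ssrp1 on the opposite strand, and 6.20% of the bases in P2rx3 exons overlap the gene body of Ssrp1, which encodes a histone chaperone. Ssrp1 averaged 572 ± 112 CPM on the deficient diet against 548 ± 57.6 CPM in normal-diet tumours (SD, n = 5 per diet), with a log2 fold change of 0.06 (SE 0.15, edgeR adjusted p = 0.998). Of the other tested genes within 100 kb, the log2 fold change of Tnks1bp1 was 0.27 (SE 0.22), that of Aplnr 0.10 (SE 0.45) and that of Slc43a3 0.00 (SE 0.26), with edgeR adjusted p-values of 0.953 to 1. Aside from leaving out single libraries, the other settings gave Aplnr values from -0.78 to 0.16, the lowest being without the 3 muscle-rich libraries. The eosinophil genes Prg2 and Prg3, the nearest on the other side, had 19 and 5 counts over all libraries and were not tested.

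Likeness to P2rx3 was measured within diets, as Pearson's r of log2 CPM after each diet's mean was removed, over 10 libraries and 11151 genes. This leaves the diet difference out of r, but not out of the choice of candidates, which needed a mean of at least 2 CPM. Among so many genes and so few libraries, high values of r can arise by chance. How many would was not tested, so the ranking is a description of these libraries only. Cyp4f40, a cytochrome P450 gene, was the most alike at r = 0.97, followed by Zfp146 (0.90), Smu1 (0.87), Tnfrsf23 (0.87) and Snx6 (0.87). Cyp4f40 averaged 5.79 CPM on the deficient diet and 1.21 CPM on the normal diet, so it passed the minimum only through the deficient diet. Nothing is read from its rank or its diet difference. For Tnfrsf23, 72.1% of exonic bases lie inside other genes' bodies. By Spearman's rho 1 of these 5 stayed among the 5 most alike, and without the 3 muscle-rich libraries 0 did, where Cyp4f40 had r = 0.89 and rank 30. The other tested P2X genes had within-diet r with P2rx3 of 0.46 (P2rx4), 0.36 (P2rx7), 0.21 (P2rx1) and -0.29 (P2rx5).

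Cyp4f40 had 7.93, 8.81, 2.98, 3.80 and 5.41 CPM on the deficient diet, against 1.03, 1.03, 0.724, 2.09 and 1.18 CPM on the normal diet. Replicates 1 and 2 were the highest of the deficient diet and replicate 4 the highest of the normal diet, as for P2rx3. The diets did not overlap, which held for 1.65% of all genes tested. Its log2 fold change was 2.25 (SE 0.37) with an edgeR adjusted p of 0.0699, over the threshold, and it was called in 5 of 18 alternative settings, with adjusted p-values from 3.3e-06 to 0.266. Among these 5 were the fits without replicate 3 of the deficient diet (0.0176) and without replicate 4 of the normal diet (0.0461). The other 4 genes had log2 fold changes between -0.14 (Snx6, SE 0.15) and 0.07 (Zfp146, SE 0.09).

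**Figure D5:**
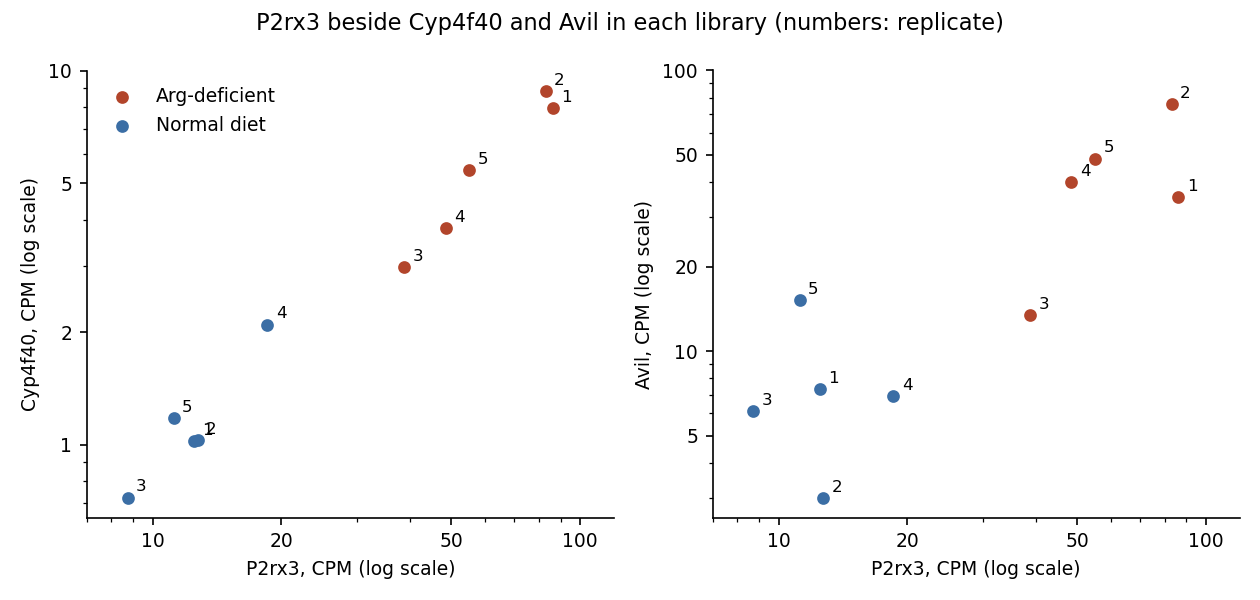
CPM of Cyp4f40 (left) and Avil (right) against CPM of P2rx3, 1 point per library, both axes on a log scale, with the replicate number beside each point. In both panels the arginine-deficient tumours lie at 38.7 to 86.3 CPM of P2rx3, and those of the normal diet at 8.73 to 18.5 CPM.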

How the data were processed

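Total RNA of 10 CT26 tumours was sequenced on Illumina instruments. The authors deposited raw read counts per gene, whole numbers with no normalization. FastQC, STAR, featureCounts and mm10 are named in the submitters' processing notes, with no version, and the annotation and strand setting of the counting are not given. Overlapping genes may therefore share or lose reads.

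Columns were matched to libraries by the number in each sample's description. Titles with Arg were read as the arginine-deficient diet. Of 21849 identifiers, 21379 matched GENCODE M21 (GRCm38) with their version, 437 with another version and 33 not at all. All pairs of libraries differed beyond sampling noise (lowest chi-square per degree of freedom 16.7). Labels do not say that each library is a separate animal, so p-values measure the spread between these libraries.

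Diets were compared in R 4.3.3 with edgeR 4.0.16, by its quasi-likelihood F test. TMM scaled the libraries, filterByExpr chose the genes (minimum count 10, minimum total 15), and diet was the only term. P-values were Benjamini-Hochberg adjusted over all genes tested, with a threshold of 0.05. This F test was also tried on simulated data, with no outcome given here, so nothing about these libraries is read from that trial. Each standard error is the log2 fold change divided by the root of its F value. CPM of genes used TMM factors, and list sums used library totals. List sums were compared by exact permutation over 252 assignments (smallest possible p 0.00794), levels of neighbouring members, as log2 of the level plus 0.1, by exact sign flips (smallest possible p 0.00195). Alternatives were DESeq2 1.42.0, limma 3.58.1 voom with sample weights, DESeq2's median-of-ratios factors (RLE), no filter or at least 1 CPM in 5 libraries, a replicate block, and leaving out libraries. Coding sequences were aligned with MAFFT 7.526.

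Members and lists were chosen with earlier results of these data known. Named genes were all members, listed genes called, up to 3 of each pathway list with the smallest p, tested genes within 100 kb of P2rx3, the 5 most like it with mean CPM of at least 2, and fixed neuron and muscle markers; Entpd1, Panx1, Nefm and the other markers named were added after their values were seen. Of the markers, 1 is not reported here by name.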

Additional observations from a re-analysis of the deposited data

Results flagged for a closer look

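Of 108 groups of 5 libraries examined, 17 had a library far from the others. By chance about 1 in 20 groups would be flagged if groups were independent and normally distributed. These groups share genes and libraries, so the 17 are not compared with that rate.

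Arginine-deficient replicate 3 stood out in several readouts. Its skeletal muscle markers summed to 6099 CPM, where the other deficient-diet libraries had 5.07 to 1562 CPM, with 736 CPM of the muscle creatine kinase gene Ckm and 2945 CPM of the fast myosin gene Myh4. Its calcium-activated targets summed to 1262 CPM, with Camk2a at 43.2 CPM, and its P2ry10 was 12.9 CPM, above the others of its diet. Its epithelial markers were low, at 91.3 CPM against 205 to 234 CPM in the others of that diet.

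Normal-diet replicate 4 had 560 CPM of muscle markers, with 64.7 CPM of Ckm and 265 CPM of Myh4. In normal-diet replicate 1 the P2Y receptors summed to 87.5 CPM and the adenosine receptors to 10.3 CPM, with Adora2a at 7.29 CPM. Normal-diet replicate 2 had 22.6 CPM of Camk2b and 23.3 CPM of Slc43a3. Normal-diet replicate 5 had 7.82 CPM of Nfatc4 and 1.77 CPM of P2ry10. In none of the 7 P2X genes was a library this far from the others of its diet.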

How the results depend on the processing

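The number of genes called across the table depended on the fit: 7 in the main fit, 131 by DESeq2, 373 by limma voom, 1 with a replicate block, 18 without the 3 muscle-rich libraries, 0 without the 2 libraries richest in Gapdh, and 0 to 16 when each library was left out in turn. It was 0 without normal-diet replicate 1 or normal-diet replicate 3, and 16 without arginine-deficient replicate 3, so the adjusted p of P2rx3 itself crossed the threshold with the choice of libraries. Its log2 fold change ran from 2.14 to 2.47 with each library left out, and from 2.10 to 2.74 in the other settings. Pathway genes called numbered 0, but 1 by limma voom. Marker genes called numbered 0, but 1 by DESeq2, 3 by limma voom and 0 to 1 when each library was left out. Of the 5 genes most like P2rx3, 1 was shared by Spearman's rho and 0 without the muscle-rich libraries. P2rx1 also had a positive log2 fold change by limma voom (0.34) and without the Gapdh-rich libraries (0.08). The causes of these shifts were not tested. Whether replicate numbers pair the libraries is not known. The correlation of deviations ran from -0.35 to 0.18, over 0.1 for 3 of 5 numbers, which cannot decide it without a reference. Under the replicate block P2rx3 had a log2 fold change of 2.27. For P2rx2, P2rx5 and P2rx6, with at most 16, 72 and 28 counts per library, depth limits what difference could be seen.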
